A study of Mus musculus with 4 samples.

Results

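The cytochrome P450 genes of the mouse were followed through 4 sorted populations of intestinal tumour cells. They were taken as every gene whose symbol begins with Cyp directly followed by a digit, without symbols that mark a pseudogene by -ps, which gave 97 of the 22911 genes named on the array. Each population was measured on 1 one-colour expression array, so there were no replicates, nothing could be tested, and no p-value is given. The sort gave Lgr5+ tuft marker+ cells (double positive), Lgr5+ tuft marker- cells, Lgr5- tuft marker+ cells, and Lgr5- tuft marker- cells (double negative). All 4 came from the EpCAM+ gate of mice written in the labels as Lgr5CreERT2/+; Ctnnb1lox(ex3)/ox(ex3), and were collected 14 days after tamoxifen. Lgr5 marks the stem cells of the crypt, and here its locus also drives the tamoxifen-activated Cre recombinase. Removal of exon 3 of Ctnnb1, flanked by lox sites in this allele, leaves a beta-catenin that is not degraded. The tuft marker was IL17RB, a cytokine receptor of tuft cells, the chemosensory cells of the gut lining. All populations therefore carried the same alleles and the same treatment, with no untreated mice among the samples. Whether every sorted cell had recombined the allele is not stated, and neither the number of animals behind a sort nor the gut region is named in the sources used here.

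P450 enzymes are haem proteins that insert an oxygen atom from molecular oxygen into fat-soluble compounds. Some members have fixed tasks in making or breaking down cholesterol, bile acids, steroid hormones, vitamin D or retinoic acid, and many others act on drugs, pollutants and fatty acids. The small intestine holds a set of its own, best known from enterocytes, where these enzymes meet compounds taken up from food.

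A level is the log2 of a gene's spot intensity minus the array's 75th percentile, so that 0 is the 75th percentile of that array. Levels of different genes are not compared with each other, since each probe has its own brightness. The error given after ± is the scanner software's error of the spots carried to the log2 scale, between 0.14 and 0.32 for a level above background, and it does not cover animals, sorts or labelling. Where a gene was above background on only 1 array of a pair, its fold is a lower limit against the floor of the other array and is written as "at least". In RNA from a mixed population, fewer cells of a type and less RNA per cell cannot be told apart.

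Of the 97 genes, 82 were above background on at least 1 array and 48 on all 4, which is 49.5% on all 4 against 61.3% of all genes. By population, 58 were above background in Lgr5+ tuft marker+ cells, 69 in Lgr5+ tuft marker- cells, 70 in Lgr5- tuft marker+ cells and 62 in Lgr5- tuft marker- cells. As percentages these were 59.8, 71.1, 72.2 and 63.9, beside 66.9, 73.7, 74.9 and 69.6 for all genes in the same order of populations. The 15 genes above background nowhere included Cyp7a1, the first enzyme of the classical bile acid route, Cyp8b1, which is needed for cholic acid, Cyp11a1, which starts steroid hormone synthesis, and Cyp1a2, a drug enzyme of the liver. The others were Cyp11b2, Cyp2b9, Cyp2c39, Cyp2c40, Cyp2c54, Cyp2d13, Cyp2f2, Cyp3a16, Cyp4a14, Cyp4f15 and Cyp4f39. Of 6 hepatocyte markers, Ttr, Fgb and Apoh were also below background on all arrays, while Serpina1a was above it on all, Alb on all but the Lgr5+ tuft marker+ array, and Ahsg on the Lgr5+ tuft marker- array.

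The sort markers were read on the same arrays. Lgr5 stood at -0.78 in Lgr5+ tuft marker+ cells, -0.80 in Lgr5+ tuft marker- cells, -5.83 (not above background) in Lgr5- tuft marker+ cells and -3.19 in Lgr5- tuft marker- cells. Il17rb stood at -0.38 in Lgr5+ tuft marker+ cells, -3.13 in Lgr5+ tuft marker- cells, 0.12 in Lgr5- tuft marker+ cells and -4.70 (not above background) in Lgr5- tuft marker- cells. The tuft cell markers, Il17rb among them, summed to 78.4 times the 75th percentile in Lgr5+ tuft marker+ cells, 6.24 in Lgr5+ tuft marker- cells, 58.3 in Lgr5- tuft marker+ cells and 2.5 in Lgr5- tuft marker- cells. The 8 epithelial markers were above background on every array. So were 12 of 12 myeloid markers on all arrays but the Lgr5+ tuft marker- one, where 9 were.

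Of the 82 measured P450 genes, 40 were at least 2-fold apart in at least 1 of the 4 pairs of populations (48.8%, against 43.9% of all genes). As a family the P450 genes were thus about as often apart as other genes. The Lgr5+ tuft marker- cells stood at least 2-fold above each other population in 4 P450 genes, Cyp2c67, Cyp2c68, Cyp2c69 and Cyp2b10 (4.88%, against 1.06% of all genes). The Lgr5- tuft marker- cells did so in 6, Cyp2c65, Cyp2c66, Cyp2c23, Cyp2d12, Cyp2d26 and Cyp3a25 (7.32%, against 1.26%). The Lgr5- tuft marker+ cells did so in Cyp1b1 and Cyp2g1 (2.44%, against 3.76%), and the Lgr5+ tuft marker+ cells in Cyp26a1 (1.22%, against 1.45%). Cyp4v3 was the single P450 gene at least 2-fold below each other population in double negative cells (1.22%, against 1.05%), and 0 were so in double positive cells (against 0.869%). Of the 4 genes that stood out in Lgr5+ tuft marker- cells, 3 are close copies of each other. Among the 6 in Lgr5- tuft marker- cells, Cyp2c65 and Cyp2c66 are neighbours that share 94.1% of aligned bases before their starts. Cyp2c65, Cyp2c66, Cyp3a25 and Cyp2b10 kept no 2-fold difference after normexp background correction. That correction adds an offset of 50 to each signal, which makes the folds of dim genes smaller. Cyp2c23 was read by 1 of its 2 probes, and a second probe of Cyp2b10 was above background in Lgr5- tuft marker- cells alone.

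Counted over the whole family, tuft marker+ against tuft marker- cells within Lgr5+ gave 8 of 74 measured genes past 2-fold upward (all genes 10.5%) and 9 downward (8.25%). Within Lgr5- there were 11 higher (16.5%) and 12 lower (12.4%) of 75, but 21 higher and 7 lower with the authors' scaling. All genes moved likewise there, from 2950 higher and 2209 lower to 4444 and 1168 of 17874. Lgr5+ against Lgr5- cells within tuft marker+ gave 7 higher (9%) and 9 lower (11.5%) of 73, against 10 and 8 with scaling to the median, 11 and 9 with quantile normalization, and 7 and 14 with the authors' scaling. For all genes these were 1581 higher and 2023 lower of 17574, against 2605 and 1302, 1957 and 1788, and 1073 and 2758 in the same order. Within tuft marker- there were 10 higher (6.58%) and 8 lower (5.33%) of 73, or 8 higher and 10 lower with scaling to the median. All genes went there from 1149 higher and 931 lower to 881 and 1256 of 17472. With scaling to the 75th percentile, the shares of the measured P450 genes higher and lower were 10.8% and 12.2%, 14.7% and 16%, 9.59% and 12.3%, and 13.7% and 11% in the order of the 4 pairs, the last pair lying furthest above all genes. The median log2 differences of the P450 genes above background on both arrays were -0.10, 0.16, 0.04 and 0.25, against 0.03, -0.01, 0.04 and -0.03 for all genes. The sign of the first 3 medians turned or went to 0 under at least 1 other scaling, and that of the last did not under any of the 4. After normexp background correction, 22 of the 74 gene-and-pair differences past 2-fold stayed past it, all in the same direction. They belonged to 16 of the 40 genes: Cyp1b1, Cyp26a1, Cyp2a22, Cyp2c23, Cyp2c67, Cyp2c68, Cyp2c69, Cyp2c70, Cyp2d12, Cyp2d26, Cyp4a10, Cyp4a12a, Cyp4a31, Cyp4b1, Cyp4f18 and Cyp51. The other 24, among them Cyp2c65, Cyp2c66, Cyp4v3, Cyp2s1 and Cyp3a13, kept no 2-fold difference under that correction. Since its offset of 50 shrinks the folds of dim genes, such a loss does not show that a difference is absent. Counts of all genes fell under normexp too, to 666, 951, 383 and 134 higher and 250, 789, 390 and 168 lower in the 4 pairs. Before it they were 1833, 2950, 1581 and 1149 higher and 1441, 2209, 2023 and 931 lower. The 4 pairs share arrays, so they are not independent of each other.

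**Figure D1:**
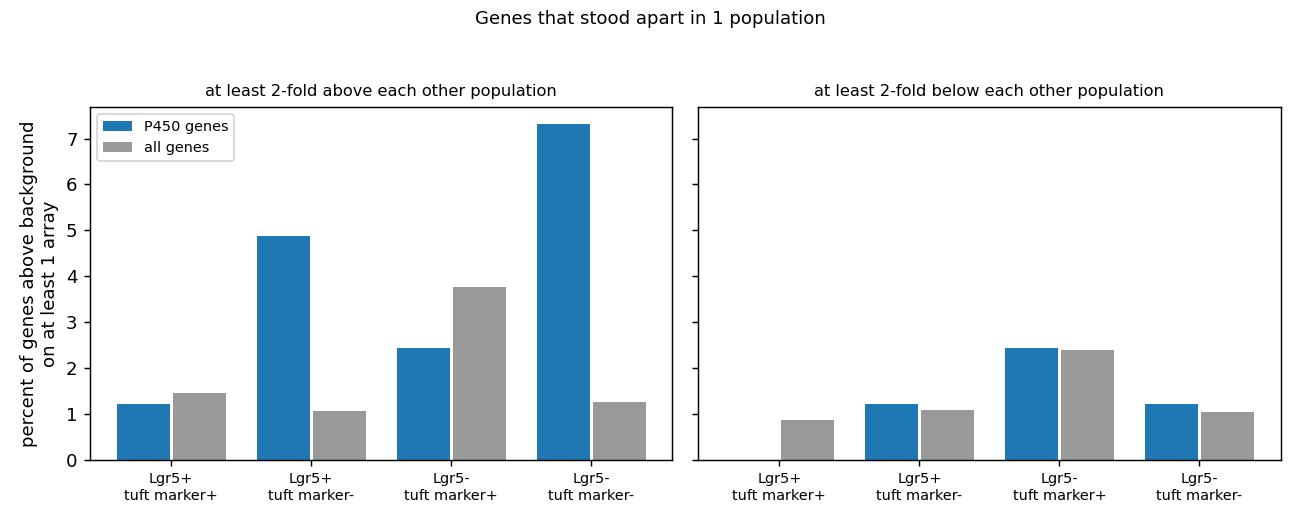
Share of genes, in percent of those above background on at least 1 array, that stood at least 2-fold above (left) or below (right) each of the other populations, for P450 genes (blue bars) and all genes (grey bars). The highest P450 bars are 7.32% in Lgr5- tuft marker- cells and 4.88% in Lgr5+ tuft marker- cells, both in the left panel.

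Sequence before the transcription start is shown for the genes that stood out in 1 population, to set the letters of close relatives side by side. Each line holds the 250 bases before the start, 5′ to 3′ on the gene's strand, from RefSeq's GRCm38.p6 assembly, which held such a window for 74 of the 97 genes. Capitals mark a motif searched on both strands: AGTTCA followed by NNNNN and AGTTCA again for Cyp26a1, a direct repeat of a kind bound by retinoic acid receptors, GCGTG for Cyp1b1, the core bound by the Ah receptor, and CAAAGTCCA for the Cyp2c genes, a form of the site of Hnf4a. Each motif was searched on its own, without regard to overlap with the others. Cyp26a1 lies at chr19:37697558-37697807 on the plus strand, Cyp1b1 at chr17:79715062-79715311 on the minus strand, Cyp2c67 at chr19:39649043-39649292 on the minus strand, Cyp2c68 at chr19:39741102-39741351 on the minus strand, Cyp2c69 at chr19:39886770-39887019 on the minus strand, Cyp2c65 at chr19:39060756-39061005 on the plus strand and Cyp2c66 at chr19:39113648-39113897 on the plus strand.
Cyp26a1: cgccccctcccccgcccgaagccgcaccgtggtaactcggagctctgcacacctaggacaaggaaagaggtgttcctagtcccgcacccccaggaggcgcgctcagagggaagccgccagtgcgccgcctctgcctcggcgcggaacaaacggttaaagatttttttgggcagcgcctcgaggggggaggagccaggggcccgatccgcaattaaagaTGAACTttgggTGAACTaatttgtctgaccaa
Cyp1b1: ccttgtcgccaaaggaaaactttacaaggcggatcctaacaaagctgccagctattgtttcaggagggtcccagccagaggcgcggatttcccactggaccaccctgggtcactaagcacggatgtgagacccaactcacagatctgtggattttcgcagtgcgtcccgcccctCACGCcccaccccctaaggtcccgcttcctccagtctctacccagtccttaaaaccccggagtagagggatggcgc
Cyp2c67: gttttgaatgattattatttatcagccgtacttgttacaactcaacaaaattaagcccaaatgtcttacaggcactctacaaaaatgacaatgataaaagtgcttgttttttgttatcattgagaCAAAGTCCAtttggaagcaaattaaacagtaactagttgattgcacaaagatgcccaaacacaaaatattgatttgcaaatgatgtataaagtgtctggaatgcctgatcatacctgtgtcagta
Cyp2c68: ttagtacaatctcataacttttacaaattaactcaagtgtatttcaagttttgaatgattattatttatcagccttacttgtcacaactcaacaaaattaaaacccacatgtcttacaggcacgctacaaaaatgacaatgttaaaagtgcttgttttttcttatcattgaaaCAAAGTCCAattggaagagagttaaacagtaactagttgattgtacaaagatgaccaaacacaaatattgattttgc
Cyp2c69: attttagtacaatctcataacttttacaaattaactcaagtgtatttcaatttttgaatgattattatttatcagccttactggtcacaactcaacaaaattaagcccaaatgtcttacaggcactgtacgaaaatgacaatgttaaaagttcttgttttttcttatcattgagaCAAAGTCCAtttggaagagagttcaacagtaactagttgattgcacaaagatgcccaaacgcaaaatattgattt
Cyp2c65: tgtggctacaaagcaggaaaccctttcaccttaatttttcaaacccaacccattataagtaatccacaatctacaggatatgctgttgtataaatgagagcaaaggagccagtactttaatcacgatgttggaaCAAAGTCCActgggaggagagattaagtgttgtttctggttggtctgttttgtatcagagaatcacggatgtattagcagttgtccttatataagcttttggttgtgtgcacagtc
Cyp2c66: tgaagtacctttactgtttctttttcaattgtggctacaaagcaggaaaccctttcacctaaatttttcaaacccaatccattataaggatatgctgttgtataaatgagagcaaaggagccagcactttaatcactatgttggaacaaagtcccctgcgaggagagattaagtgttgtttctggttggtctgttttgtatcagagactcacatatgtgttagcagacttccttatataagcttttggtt

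The repeat in Cyp26a1 was read on the opposite strand, 15 bases before the start, and was found in 7 of 32851 windows of all genes (0.0213%) and in no other P450 window. GCGTG was in 28.2% of all windows and in those of 15 P450 genes. CAAAGTCCA was in 126 of all windows (0.384%) and in those of 10 P450 genes, among them 6 of the 13 Cyp2c genes with a window. Cyp2c65 holds it and its neighbour Cyp2c66 does not, while their windows share 94.1% of their aligned bases and both genes were highest in double negative cells. The windows of Cyp2c67, Cyp2c68 and Cyp2c69 share 93.0% to 94.3% with one another and 69.5% to 75.1% with those of Cyp2c65 and Cyp2c66. A match describes letters and not a bound site.

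Cyp2c and Cyp2j enzymes turn arachidonic acid into epoxides, besides acting on drugs. Of the 21 genes of these subfamilies, 18 were above background on at least 1 array and 13 were at least 2-fold apart in at least 1 pair, beside 43.9% of all measured genes. A group of close neighbours on chromosome 19, Cyp2c67, Cyp2c68 and Cyp2c69, was highest in Lgr5+ tuft marker- cells. Cyp2c67 stood at -2.67 in Lgr5+ tuft marker+ cells, -0.43 in Lgr5+ tuft marker- cells, -2.03 in Lgr5- tuft marker+ cells and -2.77 in Lgr5- tuft marker- cells. Cyp2c68 stood at -2.33 in Lgr5+ tuft marker+ cells, 0.15 in Lgr5+ tuft marker- cells, -2.36 in Lgr5- tuft marker+ cells and -2.52 in Lgr5- tuft marker- cells. Cyp2c69 stood at -1.12 in Lgr5+ tuft marker+ cells, 0.57 in Lgr5+ tuft marker- cells, -0.90 in Lgr5- tuft marker+ cells and -1.58 in Lgr5- tuft marker- cells. In each of the 3, the Lgr5+ tuft marker- level was the highest and no other pair of populations compared was 2-fold apart. Within Lgr5+ cells, tuft marker+ cells were lower than tuft marker- cells in Cyp2c67 by 4.71-fold (log2 difference -2.24 ± 0.27), in Cyp2c68 by 5.55-fold (log2 difference -2.47 ± 0.25) and in Cyp2c69 by 3.23-fold (log2 difference -1.69 ± 0.21). Within tuft marker- cells, Lgr5+ cells were higher than Lgr5- cells in Cyp2c67 by 5.07-fold (log2 difference 2.34 ± 0.26), in Cyp2c68 by 6.36-fold (log2 difference 2.67 ± 0.25) and in Cyp2c69 by 4.44-fold (log2 difference 2.15 ± 0.22). All 6 differences were several times the scanner error. Goblet cell markers were also highest there, summing to 148 in Lgr5+ tuft marker+ cells, 309 in Lgr5+ tuft marker- cells, 57.1 in Lgr5- tuft marker+ cells and 176 in Lgr5- tuft marker- cells. Sums of Paneth cell markers (604, 718, 170 and 293 in the same order) and of stem cell markers (7.58, 9.81, 4.48 and 7.65) were highest there too. For Lgr5+ against Lgr5- cells within tuft marker-, 6 of 7 Paneth, 2 of 8 goblet and 2 of 7 stem cell markers were at least 2-fold higher. Lgr5 itself, on which the cells were sorted, was among those 2 stem cell markers. Single stem cell markers were mixed in that pair, with 4 of 7 higher by any amount. Ascl2 (log2 difference -0.57) and Axin2 (-0.68) were lower. The part of other cells in the Cyp2c levels was not tested. Cyp2c67 and Cyp2c68 lie next to each other, with Cyp2c40, which was below background on all arrays, between Cyp2c68 and Cyp2c69. The probes of such near copies may read each other's RNA, which was not tested, so the 3 may not be independent readings.

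Another pair of neighbours stood highest in the double negative cells. Cyp2c65 stood at -1.26 in Lgr5+ tuft marker+ cells, -0.77 in Lgr5+ tuft marker- cells, -0.94 in Lgr5- tuft marker+ cells and 0.32 in Lgr5- tuft marker- cells. Cyp2c66 stood at -0.50 in Lgr5+ tuft marker+ cells, -0.49 in Lgr5+ tuft marker- cells, -0.49 in Lgr5- tuft marker+ cells and 0.79 in Lgr5- tuft marker- cells. Within Lgr5- cells, tuft marker+ cells were lower than tuft marker- cells by 2.38-fold (log2 difference -1.25 ± 0.21) for Cyp2c65 and by 2.42-fold (log2 difference -1.28 ± 0.21) for Cyp2c66. Within tuft marker- cells, Lgr5+ cells were lower than Lgr5- cells by 2.12-fold (log2 difference -1.09 ± 0.21) and 2.44-fold (log2 difference -1.29 ± 0.21) for the same genes. Cyp2c66 did not differ among the other 3 populations beyond the scanner error, at -0.50, -0.49 and -0.49. Cyp2c23, an arachidonic acid epoxygenase known from the kidney, stood at -5.56 (not above background) in Lgr5+ tuft marker+ cells, -6.06 (not above background) in Lgr5+ tuft marker- cells, -2.40 in Lgr5- tuft marker+ cells and -0.51 in Lgr5- tuft marker- cells. It was therefore read in the Lgr5- populations only, and by 1 of its 2 probes, with tuft marker+ cells lower than tuft marker- cells there by 3.72-fold (log2 difference -1.90 ± 0.25) and Lgr5+ cells lower than Lgr5- cells by at least 2.01-fold within tuft marker+ and by at least 10.2-fold within tuft marker- cells. Within tuft marker-, Lgr5+ cells had 10 of 12 enterocyte markers at least 2-fold below Lgr5- cells, but over the 4 populations these markers were highest in double positive cells, with sums of 183 in Lgr5+ tuft marker+ cells, 53.6 in Lgr5+ tuft marker- cells, 118 in Lgr5- tuft marker+ cells and 132 in Lgr5- tuft marker- cells. Enteroendocrine markers did peak in double negative cells, with sums of 26.5, 31.2, 15.1 and 39.4 in the same order of populations. Of 9 such markers, 6 were at least 2-fold lower for tuft marker+ against tuft marker- cells within Lgr5-. In the Lgr5 pair of the tuft marker- cells, 2 of 9 were at least 2-fold lower and 4 were higher by any amount. The part of enterocyte or enteroendocrine RNA in the Cyp2c65, Cyp2c66 and Cyp2c23 levels was not tested.

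Cyp2c70, which makes the muricholic acids of mouse bile, took opposite directions in the 2 tuft marker pairs. It stood at -2.17 in Lgr5+ tuft marker+ cells, -0.86 in Lgr5+ tuft marker- cells, -0.05 in Lgr5- tuft marker+ cells and -1.50 in Lgr5- tuft marker- cells. Tuft marker+ cells were lower than tuft marker- cells within Lgr5+ by 2.48-fold (log2 difference -1.31 ± 0.24) and higher within Lgr5- by 2.74-fold (log2 difference 1.45 ± 0.22). Within tuft marker+, Lgr5+ cells were lower than Lgr5- cells by 4.35-fold (log2 difference -2.12 ± 0.24). The window of Cyp2c70 holds the same CAAAGTCCA letters as those of Cyp2c65, Cyp2c67, Cyp2c68 and Cyp2c69, whose levels ran in other orders.

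The remaining members of these subfamilies gave smaller or dimmer differences. Cyp2c29, a liver enzyme, stood at -2.86 in Lgr5+ tuft marker+ cells, -2.68 in Lgr5+ tuft marker- cells, -3.61 in Lgr5- tuft marker+ cells and -2.26 in Lgr5- tuft marker- cells. Cyp2c50 stood at -4.48 (not above background) in Lgr5+ tuft marker+ cells, -2.25 in Lgr5+ tuft marker- cells, -2.69 in Lgr5- tuft marker+ cells and -3.57 (not above background) in Lgr5- tuft marker- cells. Both were dim, and a second probe of Cyp2c50 was below background on all arrays, the largest of their differences being Cyp2c29 in tuft marker+ against tuft marker- cells within Lgr5-, lower by 2.55-fold (log2 difference -1.35 ± 0.36), and Cyp2c50 in Lgr5+ against Lgr5- cells within tuft marker-, higher by at least 2.5-fold. Cyp2j8 stood at -1.44 in Lgr5+ tuft marker+ cells, -1.49 in Lgr5+ tuft marker- cells, -2.63 in Lgr5- tuft marker+ cells and -0.97 in Lgr5- tuft marker- cells. Cyp2j9, a fatty acid epoxygenase known from mouse brain, stood at -0.48 in Lgr5+ tuft marker+ cells, -0.42 in Lgr5+ tuft marker- cells, -1.66 in Lgr5- tuft marker+ cells and -0.75 in Lgr5- tuft marker- cells. Both were lowest in Lgr5- tuft marker+ cells, and within tuft marker+ the Lgr5+ cells were higher than Lgr5- cells by 2.29-fold (log2 difference 1.19 ± 0.27) for Cyp2j8 and 2.26-fold (log2 difference 1.18 ± 0.23) for Cyp2j9. Cyp2j13 stood at -3.61 (not above background) in Lgr5+ tuft marker+ cells, -2.32 in Lgr5+ tuft marker- cells, -4.66 (not above background) in Lgr5- tuft marker+ cells and -2.49 in Lgr5- tuft marker- cells. It was the only P450 gene of 67 lower in tuft marker+ cells in both pairs (1.49%, against 1.45% of all genes), by at least 2.14-fold within Lgr5+ and at least 2.24-fold within Lgr5-, but of its 3 dimmer probes, the second was above background in Lgr5+ tuft marker- cells alone, the third in Lgr5- tuft marker+ cells alone and the last on no array. Cyp2j6, an intestinal epoxygenase, stood at -1.94 in Lgr5+ tuft marker+ cells, -1.12 in Lgr5+ tuft marker- cells, -0.56 in Lgr5- tuft marker+ cells and -0.99 in Lgr5- tuft marker- cells. Its brightest probe gave a log2 difference of -1.38 for Lgr5+ against Lgr5- cells within tuft marker+, and a second probe gave 0.90, so its direction is unsettled. The 5 others above background, Cyp2c37, Cyp2c38, Cyp2c55, Cyp2j5 and Cyp2j11, had measured log2 differences between -0.86 and 0.80 by their brightest probes. A second probe of Cyp2c55 disagreed, with 1.45 against -0.84 for tuft marker+ minus tuft marker- within Lgr5- and 0.43 against -0.86 for Lgr5+ minus Lgr5- within tuft marker-, so its direction is unsettled. Counted over both subfamilies, tuft marker+ against tuft marker- cells within Lgr5+ gave 0 genes past 2-fold upward and 6 downward among 17 measured, where 10.5% of all genes were higher and 8.25% lower. Normexp gave 0 higher and 3 lower in that pair. Within Lgr5- the counts were 1 higher and 6 lower of 18 (all genes 16.5% and 12.4%), but 4 and 3 with the authors' own scaling, 1 and 8 with scaling to the median, and 0 and 0 after normexp. For all 17874 genes measured there, these settings gave 4444 and 1168, 2032 and 3444, and 951 and 789 in the same order.

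**Figure D2:**
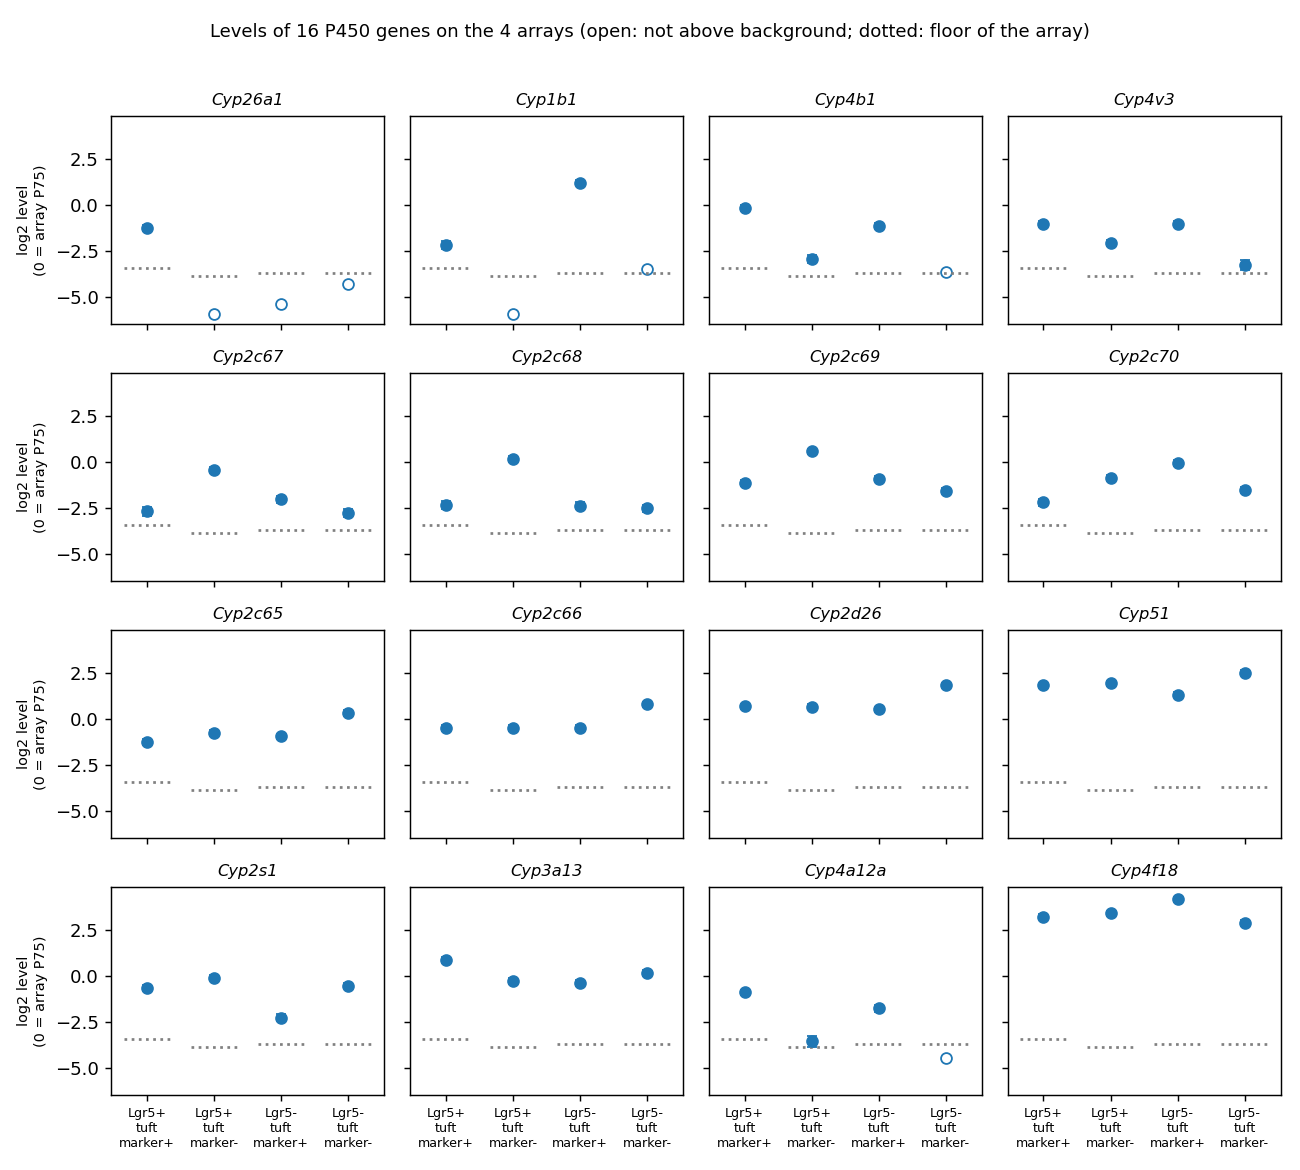
Level of 16 P450 genes (y axis, log2 intensity minus the 75th percentile of the array) in the 4 populations (x axis, 1 array each), with filled points for values above background, open points for values that were not, bars for the scanner error, and dotted lines for the floor of each array. Cyp2c67, Cyp2c68 and Cyp2c69 peak in Lgr5+ tuft marker- cells, Cyp2c65, Cyp2c66 and Cyp2d26 in Lgr5- tuft marker- cells, Cyp1b1 in Lgr5- tuft marker+ cells, and Cyp26a1 is above background in Lgr5+ tuft marker+ cells only.

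The Cyp26 enzymes break down retinoic acid, the vitamin A product that acts through nuclear receptors, and Cyp26a1 is itself a target of those receptors. Cyp26a1 stood at -1.26 in Lgr5+ tuft marker+ cells, -5.88 (not above background) in Lgr5+ tuft marker- cells, -5.36 (not above background) in Lgr5- tuft marker+ cells and -4.30 (not above background) in Lgr5- tuft marker- cells. It was above background in the double positive cells alone, where tuft marker+ cells were higher than tuft marker- cells by at least 6.05-fold within Lgr5+, and Lgr5+ cells were higher than Lgr5- cells by at least 5.27-fold within tuft marker+. Cyp26b1 stood at 0.58 in Lgr5+ tuft marker+ cells, 0.55 in Lgr5+ tuft marker- cells, 1.39 in Lgr5- tuft marker+ cells and 0.11 in Lgr5- tuft marker- cells. It was highest in Lgr5- tuft marker+ cells, with tuft marker+ above tuft marker- cells within Lgr5- by 2.44-fold (log2 difference 1.29 ± 0.21). Cyp26c1, which lies next to Cyp26a1 on chromosome 19, stood at -2.23 in Lgr5+ tuft marker+ cells, -2.64 in Lgr5+ tuft marker- cells, -3.46 (not above background) in Lgr5- tuft marker+ cells and -2.81 in Lgr5- tuft marker- cells. Its Lgr5+ cells were higher than Lgr5- cells within tuft marker+ by at least 2.35-fold, and it was dim on the others. Cyp26a1 and Cyp26c1 were thus highest in double positive cells and Cyp26b1 in Lgr5- tuft marker+ cells. Among 11 other genes of retinoid handling on the array, none of 10 measured differed 2-fold in tuft marker+ against tuft marker- cells within Lgr5+, and 3 of 9 measured were higher and 1 lower within Lgr5-. Aldh1a3, which makes retinoic acid, was among the 3, at -3.19 in Lgr5+ tuft marker+ cells, -4.07 (not above background) in Lgr5+ tuft marker- cells, -1.20 in Lgr5- tuft marker+ cells and -3.75 (not above background) in Lgr5- tuft marker- cells.

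Cyp1 genes are switched on by the Ah receptor in answer to pollutants and plant compounds. Cyp1b1 stood at -2.17 in Lgr5+ tuft marker+ cells, -5.91 (not above background) in Lgr5+ tuft marker- cells, 1.19 in Lgr5- tuft marker+ cells and -3.46 (not above background) in Lgr5- tuft marker- cells. Its tuft marker+ cells were higher than tuft marker- cells by at least 25.2-fold within Lgr5-, the largest fold of any P450 gene in the 4 pairs, and by at least 3.23-fold within Lgr5+. Within tuft marker+, Lgr5+ cells were lower than Lgr5- cells by 10.3-fold (log2 difference -3.36 ± 0.26). Cyp1a1, the classical Ah receptor target, stood at -4.64 (not above background) in Lgr5+ tuft marker+ cells, -3.83 (not above background) in Lgr5+ tuft marker- cells, -4.17 (not above background) in Lgr5- tuft marker+ cells and -3.22 in Lgr5- tuft marker- cells. Of the 2 genes, Cyp1b1 was thus read in the tuft marker+ populations and Cyp1a1 in the double negative cells. The Cyp1a1 level lay near the floor of that array (-3.69). Its limits of at least 1.36-fold within Lgr5- and at least 1.53-fold within tuft marker- were below 2-fold. The Ah receptor gene itself, Ahr, stood at -2.80 in Lgr5+ tuft marker+ cells, -2.51 in Lgr5+ tuft marker- cells, -1.52 in Lgr5- tuft marker+ cells and -4.60 (not above background) in Lgr5- tuft marker- cells. Its repressor Ahrr, also a target, stood at -2.12 in Lgr5+ tuft marker+ cells, -4.55 (not above background) in Lgr5+ tuft marker- cells, -1.76 in Lgr5- tuft marker+ cells and -4.39 (not above background) in Lgr5- tuft marker- cells, where tuft marker+ cells exceeded tuft marker- cells by at least 3.34-fold within Lgr5+ and at least 3.81-fold within Lgr5-. Nqo1, another target, went the other way within Lgr5-, with tuft marker+ cells lower by 3.64-fold (log2 difference -1.86 ± 0.21). The 10 stromal markers had the same order of populations as Cyp1b1 for the tuft marker+ cells, with sums of 13.0 in Lgr5+ tuft marker+ cells, 1.81 in Lgr5+ tuft marker- cells, 43.4 in Lgr5- tuft marker+ cells and 2.26 in Lgr5- tuft marker- cells. They were above background in 7, 7, 10 and 6 of 10 cases in the same order. Myeloid markers summed to 102, 40.1, 155 and 36.7 in that order. The part of stromal or myeloid RNA in the Cyp1b1 level was not tested.

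Family 4 enzymes oxidise fatty acids and eicosanoids at the far end of the chain. Of 19 genes, 16 were above background on at least 1 array, and tuft marker+ cells exceeded tuft marker- cells at least 2-fold in 5 within Lgr5+ (16 measured) and 5 within Lgr5- (14 measured), with 0 lower in either pair. The 0 did not hold under every setting: within Lgr5+, 2 were lower with the other detection flag, 1 with probes averaged and 1 without a floor, and within Lgr5-, 1 was lower with scaling to the median. Normexp left 3 higher within Lgr5+ and 2 within Lgr5-. At the 1.5-fold threshold, 1 was lower in each pair. For all genes the shares at least 2-fold higher were 10.5% within Lgr5+ and 16.5% within Lgr5-. The shares at least 2-fold lower were 8.25% and 12.4%. Cyp4b1, which activates furans such as ipomeanol, stood at -0.17 in Lgr5+ tuft marker+ cells, -2.92 in Lgr5+ tuft marker- cells, -1.13 in Lgr5- tuft marker+ cells and -3.62 (not above background) in Lgr5- tuft marker- cells. Cyp4a12a, a fatty acid hydroxylase of mouse kidney, stood at -0.88 in Lgr5+ tuft marker+ cells, -3.54 in Lgr5+ tuft marker- cells, -1.75 in Lgr5- tuft marker+ cells and -4.46 (not above background) in Lgr5- tuft marker- cells. Cyp4v3, the mouse counterpart of a human fatty acid hydroxylase of the eye, stood at -1.03 in Lgr5+ tuft marker+ cells, -2.06 in Lgr5+ tuft marker- cells, -1.01 in Lgr5- tuft marker+ cells and -3.25 in Lgr5- tuft marker- cells. All 3 were higher in both tuft marker+ populations than in either tuft marker- population. Marker lists of other cells were counted in the same pairs. At least 2-fold higher in tuft marker+ cells within Lgr5+ were 9 of 12 myeloid and 6 of 7 measured stromal markers. So were 10 of 10 measured tuft markers, among them Il17rb, on which the cells were sorted, and 8 of 12 enterocyte markers. Within Lgr5- the counts were 10 of 12 myeloid, 10 of 10 stromal, 10 of 11 tuft and 1 of 12 enterocyte markers. Another 4 enterocyte markers were lower there. For Lgr5+ against Lgr5- cells within tuft marker+, the log2 differences were 0.97 in Cyp4b1, 0.87 in Cyp4a12a and -0.02 in Cyp4v3. The marker medians in that pair were -0.78 for myeloid, -1.91 for stromal, 0.17 for tuft and 0.80 for enterocyte markers. The part of other cells in the family 4 levels was not tested. Within Lgr5+, tuft marker+ cells were higher by 6.73-fold (log2 difference 2.75 ± 0.26) in Cyp4b1, 6.29-fold (log2 difference 2.65 ± 0.33) in Cyp4a12a and 2.04-fold (log2 difference 1.03 ± 0.23) in Cyp4v3. Within Lgr5- the corresponding folds were at least 5.6-fold, at least 3.82-fold and 4.73-fold (log2 difference 2.24 ± 0.32). With Cyp1b1 these were the 4 of 67 P450 genes measured in both tuft marker pairs that were higher in both (5.97%, against 4.84% of all genes). Cyp4v3 was in addition lowest in the double negative cells, with Lgr5+ above Lgr5- cells by 2.28-fold (log2 difference 1.19 ± 0.32) within tuft marker-.

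Cyp4a10, a target of the fatty acid receptor Ppara, stood at -0.90 in Lgr5+ tuft marker+ cells, -3.76 (not above background) in Lgr5+ tuft marker- cells, -1.50 in Lgr5- tuft marker+ cells and -2.32 in Lgr5- tuft marker- cells. Tuft marker+ cells were higher than tuft marker- cells by at least 7.29-fold within Lgr5+, as read by 1 probe with its other 2 below background on all arrays, and it was the only P450 gene at least 2-fold below each other population in Lgr5+ tuft marker- cells (1.22%, against 1.08% of all genes). Ppara stood at -0.57 in Lgr5+ tuft marker+ cells, -0.60 in Lgr5+ tuft marker- cells, -0.96 in Lgr5- tuft marker+ cells and 0.48 in Lgr5- tuft marker- cells. Its order differed from that of Cyp4a10, with Ppara highest in the double negative cells. Cyp4a30b stood at -2.72 in Lgr5+ tuft marker+ cells, -6.06 (not above background) in Lgr5+ tuft marker- cells, -4.03 (not above background) in Lgr5- tuft marker+ cells and -3.84 (not above background) in Lgr5- tuft marker- cells, which made tuft marker+ cells at least 2.19-fold higher within Lgr5+. Cyp4a31 stood at -0.39 in Lgr5+ tuft marker+ cells, 0.29 in Lgr5+ tuft marker- cells, 1.02 in Lgr5- tuft marker+ cells and -0.51 in Lgr5- tuft marker- cells. It was highest in Lgr5- tuft marker+ cells, above tuft marker- cells by 2.88-fold (log2 difference 1.53 ± 0.21) within Lgr5-, and Lgr5+ cells were lower than Lgr5- cells by 2.66-fold (log2 difference -1.41 ± 0.21) within tuft marker+. A second, dimmer probe of Cyp4a31 was above background in Lgr5+ tuft marker- cells alone, at -3.31.

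Cyp4f18, which inactivates leukotriene B and is known from mouse neutrophils, stood at 3.20 in Lgr5+ tuft marker+ cells, 3.39 in Lgr5+ tuft marker- cells, 4.15 in Lgr5- tuft marker+ cells and 2.87 in Lgr5- tuft marker- cells. Tuft marker+ cells were higher than tuft marker- cells within Lgr5- by 2.42-fold (log2 difference 1.28 ± 0.20). A second, dimmer probe of Cyp4f18 was above background in Lgr5- tuft marker+ cells alone, at -1.88. The population highest in Cyp4f18 was also the highest in the sums of myeloid and stromal markers given above. T and NK cell markers (sums of 20.5, 30, 52.9 and 21.1 in the same order of populations) were highest there too. So were B and plasma cell markers (1.22, 0.528, 2.16 and 0.495). Within Lgr5+, the log2 difference of tuft marker+ minus tuft marker- cells was -0.19 ± 0.20 for Cyp4f18. The median of the myeloid markers above background on both arrays was 2.07 in that pair. It was 2.75 for stromal, 0.41 for B and plasma cell and -0.52 for T and NK cell markers. The part of RNA from these other cells in the Cyp4f18 level was not tested. Cyp4f40 stood at -2.06 in Lgr5+ tuft marker+ cells, -1.85 in Lgr5+ tuft marker- cells, -4.41 (not above background) in Lgr5- tuft marker+ cells and -3.42 in Lgr5- tuft marker- cells. It was the single P450 gene whose Lgr5+ cells exceeded Lgr5- cells at least 2-fold in both pairs, by at least 3.02-fold within tuft marker+ and 2.97-fold (log2 difference 1.57 ± 0.35) within tuft marker- (1 of 64, or 1.56%, against 0.744% of all genes). Cyp2c23 was the single one lower in both (1.56%, against 0.597%). The other 8 members of family 4 above background had measured log2 differences between -0.96 and 0.95.

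**Figure D3:**
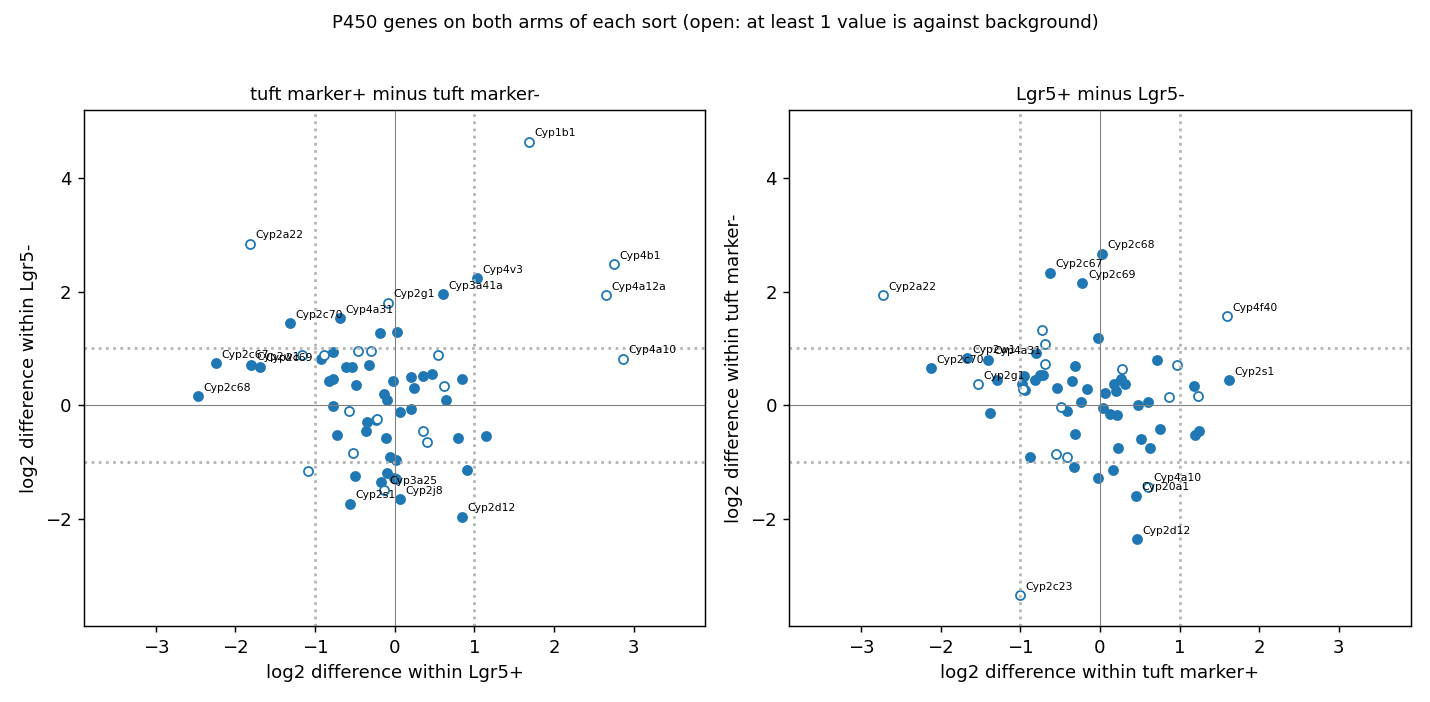
Log2 difference of each P450 gene measured in both pairs of a sort: left, tuft marker+ minus tuft marker- within Lgr5+ (x axis) and within Lgr5- (y axis), and right, Lgr5+ minus Lgr5- within tuft marker+ (x axis) and within tuft marker- (y axis). Filled points were above background on all arrays used, open points include a value set against the floor, and dotted lines mark 2-fold. Cyp1b1, Cyp4b1, Cyp4a12a and Cyp4v3 lie to the upper right of both lines in the left panel, and Cyp2a22 to the upper left in both panels.

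The other family 2 genes, 26 in number, mostly serve the breakdown of drugs and odorants. Cyp2d26 stood at 0.68 in Lgr5+ tuft marker+ cells, 0.67 in Lgr5+ tuft marker- cells, 0.52 in Lgr5- tuft marker+ cells and 1.82 in Lgr5- tuft marker- cells. Cyp2d12 stood at -2.09 in Lgr5+ tuft marker+ cells, -2.94 in Lgr5+ tuft marker- cells, -2.56 in Lgr5- tuft marker+ cells and -0.59 in Lgr5- tuft marker- cells. Both were highest in the double negative cells. Within Lgr5-, tuft marker+ cells were lower than tuft marker- cells by 2.46-fold (log2 difference -1.30 ± 0.20) in Cyp2d26 and 3.91-fold (log2 difference -1.97 ± 0.25) in Cyp2d12, and within tuft marker-, Lgr5+ cells were lower than Lgr5- cells by 2.22-fold (log2 difference -1.15 ± 0.20) and 5.12-fold (log2 difference -2.36 ± 0.26). A second probe of Cyp2d26 gave -1.51 and -1.23 for the same log2 differences, close to the first.

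Cyp2a22 stood at -3.50 (not above background) in Lgr5+ tuft marker+ cells, -1.60 in Lgr5+ tuft marker- cells, -0.69 in Lgr5- tuft marker+ cells and -3.53 in Lgr5- tuft marker- cells. It was high in the 2 single positive populations and low in the double positive and double negative ones. Tuft marker+ cells were lower than tuft marker- cells within Lgr5+ by at least 3.52-fold and higher within Lgr5- by 7.19-fold (log2 difference 2.85 ± 0.34). Lgr5+ cells were lower than Lgr5- cells within tuft marker+ by at least 6.6-fold and higher within tuft marker- by 3.83-fold (log2 difference 1.94 ± 0.34). Together with Cyp2c70 it made 2 of 67 genes apart in opposite directions in the tuft marker pairs (2.99%, against 2.68% of all genes), and it was the single one of 64 in the Lgr5 pairs (1.56%, against 2.52%).

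Cyp2s1, an Ah receptor target of epithelia, stood at -0.64 in Lgr5+ tuft marker+ cells, -0.08 in Lgr5+ tuft marker- cells, -2.26 in Lgr5- tuft marker+ cells and -0.52 in Lgr5- tuft marker- cells. It was lowest in Lgr5- tuft marker+ cells, below tuft marker- cells within Lgr5- by 3.35-fold (log2 difference -1.74 ± 0.24), and Lgr5+ cells were higher than Lgr5- cells within tuft marker+ by 3.08-fold (log2 difference 1.62 ± 0.24). Cyp2s1 and Cyp2j8 were the 2 genes at least 2-fold below each other population there (2.44%, against 2.39% of all genes). Cyp2g1, known from olfactory mucosa, stood at -5.34 (not above background) in Lgr5+ tuft marker+ cells, -3.32 in Lgr5+ tuft marker- cells, -1.88 in Lgr5- tuft marker+ cells and -5.53 (not above background) in Lgr5- tuft marker- cells, with tuft marker+ above tuft marker- cells by at least 3.5-fold within Lgr5-. Cyp2b10, a target of the drug receptor Nr1i3, stood at -5.56 (not above background) in Lgr5+ tuft marker+ cells, -2.12 in Lgr5+ tuft marker- cells, -3.89 (not above background) in Lgr5- tuft marker+ cells and -5.29 (not above background) in Lgr5- tuft marker- cells. Its Lgr5+ cells were higher than Lgr5- cells by at least 2.97-fold within tuft marker-, but a second probe of the gene was above background in Lgr5- tuft marker- cells alone. Nr1i3 itself stood at -1.24 in Lgr5+ tuft marker+ cells, -0.37 in Lgr5+ tuft marker- cells, -1.01 in Lgr5- tuft marker+ cells and 0.39 in Lgr5- tuft marker- cells. Cyp2w1, known from fetal gut and colon tumours, stood at -3.04 in Lgr5+ tuft marker+ cells, -1.23 in Lgr5+ tuft marker- cells, -1.36 in Lgr5- tuft marker+ cells and -2.06 in Lgr5- tuft marker- cells. Its brightest probe gave a log2 difference of -1.80 for tuft marker+ against tuft marker- cells within Lgr5+ and -1.67 for Lgr5+ against Lgr5- cells within tuft marker+, where a second probe gave -0.33 and -0.08. Among the 16 other measured genes of this group, with differences between -0.92 and 0.70, was Cyp2d11, bright and even, at 3.19 in Lgr5+ tuft marker+ cells, 2.98 in Lgr5+ tuft marker- cells, 3.07 in Lgr5- tuft marker+ cells and 3.14 in Lgr5- tuft marker- cells. Cyp2e1, which oxidises ethanol, lay at 1.18 in Lgr5+ tuft marker+ cells, 0.54 in Lgr5+ tuft marker- cells, 0.58 in Lgr5- tuft marker+ cells and 0.48 in Lgr5- tuft marker- cells, as read by 1 of its 2 probes, and was highest in double positive cells, by 0.64 ± 0.20 (log2) over tuft marker- cells within Lgr5+.

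Cyp3a enzymes break down many drugs, and 7 of the 8 genes were above background somewhere. Cyp3a13, the member best known from mouse intestine, stood at 0.87 in Lgr5+ tuft marker+ cells, -0.28 in Lgr5+ tuft marker- cells, -0.37 in Lgr5- tuft marker+ cells and 0.17 in Lgr5- tuft marker- cells. It was highest in the double positive cells, with tuft marker+ above tuft marker- cells by 2.21-fold (log2 difference 1.15 ± 0.21) within Lgr5+ and Lgr5+ above Lgr5- cells by 2.36-fold (log2 difference 1.24 ± 0.21) within tuft marker+. Cyp3a41a stood at -2.16 in Lgr5+ tuft marker+ cells, -2.76 in Lgr5+ tuft marker- cells, -1.18 in Lgr5- tuft marker+ cells and -3.13 in Lgr5- tuft marker- cells. Its highest level was in Lgr5- tuft marker+ cells, above tuft marker- cells by 3.89-fold (log2 difference 1.96 ± 0.30) within Lgr5-. Cyp3a25 stood at -4.88 (not above background) in Lgr5+ tuft marker+ cells, -3.27 in Lgr5+ tuft marker- cells, -3.86 (not above background) in Lgr5- tuft marker+ cells and -2.17 in Lgr5- tuft marker- cells. It was highest in the double negative cells, with tuft marker+ below tuft marker- cells by at least 2.81-fold within Lgr5- and Lgr5+ below Lgr5- cells by 2.15-fold (log2 difference -1.11 ± 0.33) within tuft marker-. Nr1i2, the receptor through which drugs switch on Cyp3a genes, stood at -0.66 in Lgr5+ tuft marker+ cells, 0.07 in Lgr5+ tuft marker- cells, -0.76 in Lgr5- tuft marker+ cells and -0.11 in Lgr5- tuft marker- cells.

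Cyp51 removes a methyl group from lanosterol on the way to cholesterol and was bright on every array. It stood at 1.83 in Lgr5+ tuft marker+ cells, 1.93 in Lgr5+ tuft marker- cells, 1.32 in Lgr5- tuft marker+ cells and 2.51 in Lgr5- tuft marker- cells. Tuft marker+ cells were lower than tuft marker- cells by 2.29-fold (log2 difference -1.19 ± 0.20) within Lgr5-, while the log2 difference within Lgr5+ was -0.10 ± 0.20, within the scanner error. A second probe of Cyp51 gave log2 differences of -1.39 within Lgr5- and -0.89 within Lgr5+, so the probes differ on the Lgr5+ pair. Of 20 other genes of cholesterol synthesis and uptake, tuft marker+ cells had 3 at least 2-fold lower and 0 higher than tuft marker- cells within Lgr5-, where 12.4% of all genes were lower. Their median log2 difference there was -0.69, against -0.01 for all genes. In the same pair 3 of 8 epithelial markers were lower, with a median of -0.77, and 10 of 12 myeloid markers were higher, with a median of 4.20, and the part of other cells was not tested. Cyp7b1, an oxysterol hydroxylase, stood at -3.30 (not above background) in Lgr5+ tuft marker+ cells, -2.41 in Lgr5+ tuft marker- cells, -2.61 in Lgr5- tuft marker+ cells and -3.49 (not above background) in Lgr5- tuft marker- cells, with Lgr5+ above Lgr5- cells by at least 2.12-fold within tuft marker-, and its other probe was below background on all arrays. Cyp39a1, Cyp46a1 and Cyp27a1, which hydroxylate cholesterol or oxysterols, had measured differences between -0.75 and 0.67.

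Vitamin D is activated by Cyp2r1 and Cyp27b1 and broken down by Cyp24a1. Cyp27b1 stood at -5.41 (not above background) in Lgr5+ tuft marker+ cells, -2.64 in Lgr5+ tuft marker- cells, -3.70 (not above background) in Lgr5- tuft marker+ cells and -5.80 (not above background) in Lgr5- tuft marker- cells, which put Lgr5+ above Lgr5- cells by at least 2.07-fold within tuft marker-. Cyp2r1 was even, at 0.39 in Lgr5+ tuft marker+ cells, 0.41 in Lgr5+ tuft marker- cells, 0.55 in Lgr5- tuft marker+ cells and 0.12 in Lgr5- tuft marker- cells. Cyp24a1, a strong target of the vitamin D receptor, was above background in Lgr5- tuft marker+ cells alone, at -3.39. Among the steroid hormone genes, Cyp17a1, needed for androgens and cortisol, stood at -1.54 in Lgr5+ tuft marker+ cells, -0.62 in Lgr5+ tuft marker- cells, -0.25 in Lgr5- tuft marker+ cells and -1.07 in Lgr5- tuft marker- cells. Its Lgr5+ cells were lower than Lgr5- cells within tuft marker+ by 2.44-fold (log2 difference -1.29 ± 0.23). Cyp19a1, the aromatase that makes oestrogens, Cyp21a1 and Cyp11b1, both needed for adrenal hormones, were above background on all arrays with differences between -0.80 and 0.94. A second probe of Cyp21a1 was above background in Lgr5+ tuft marker- cells alone, at -3.38. Cyp20a1, an orphan whose substrate is not known, stood at -1.11 in Lgr5+ tuft marker+ cells, -2.02 in Lgr5+ tuft marker- cells, -1.56 in Lgr5- tuft marker+ cells and -0.42 in Lgr5- tuft marker- cells. It was highest in the double negative cells, with Lgr5+ below Lgr5- cells by 3.03-fold (log2 difference -1.60 ± 0.23) within tuft marker- and tuft marker+ below tuft marker- cells by 2.2-fold (log2 difference -1.14 ± 0.23) within Lgr5-.

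**Figure D4:**
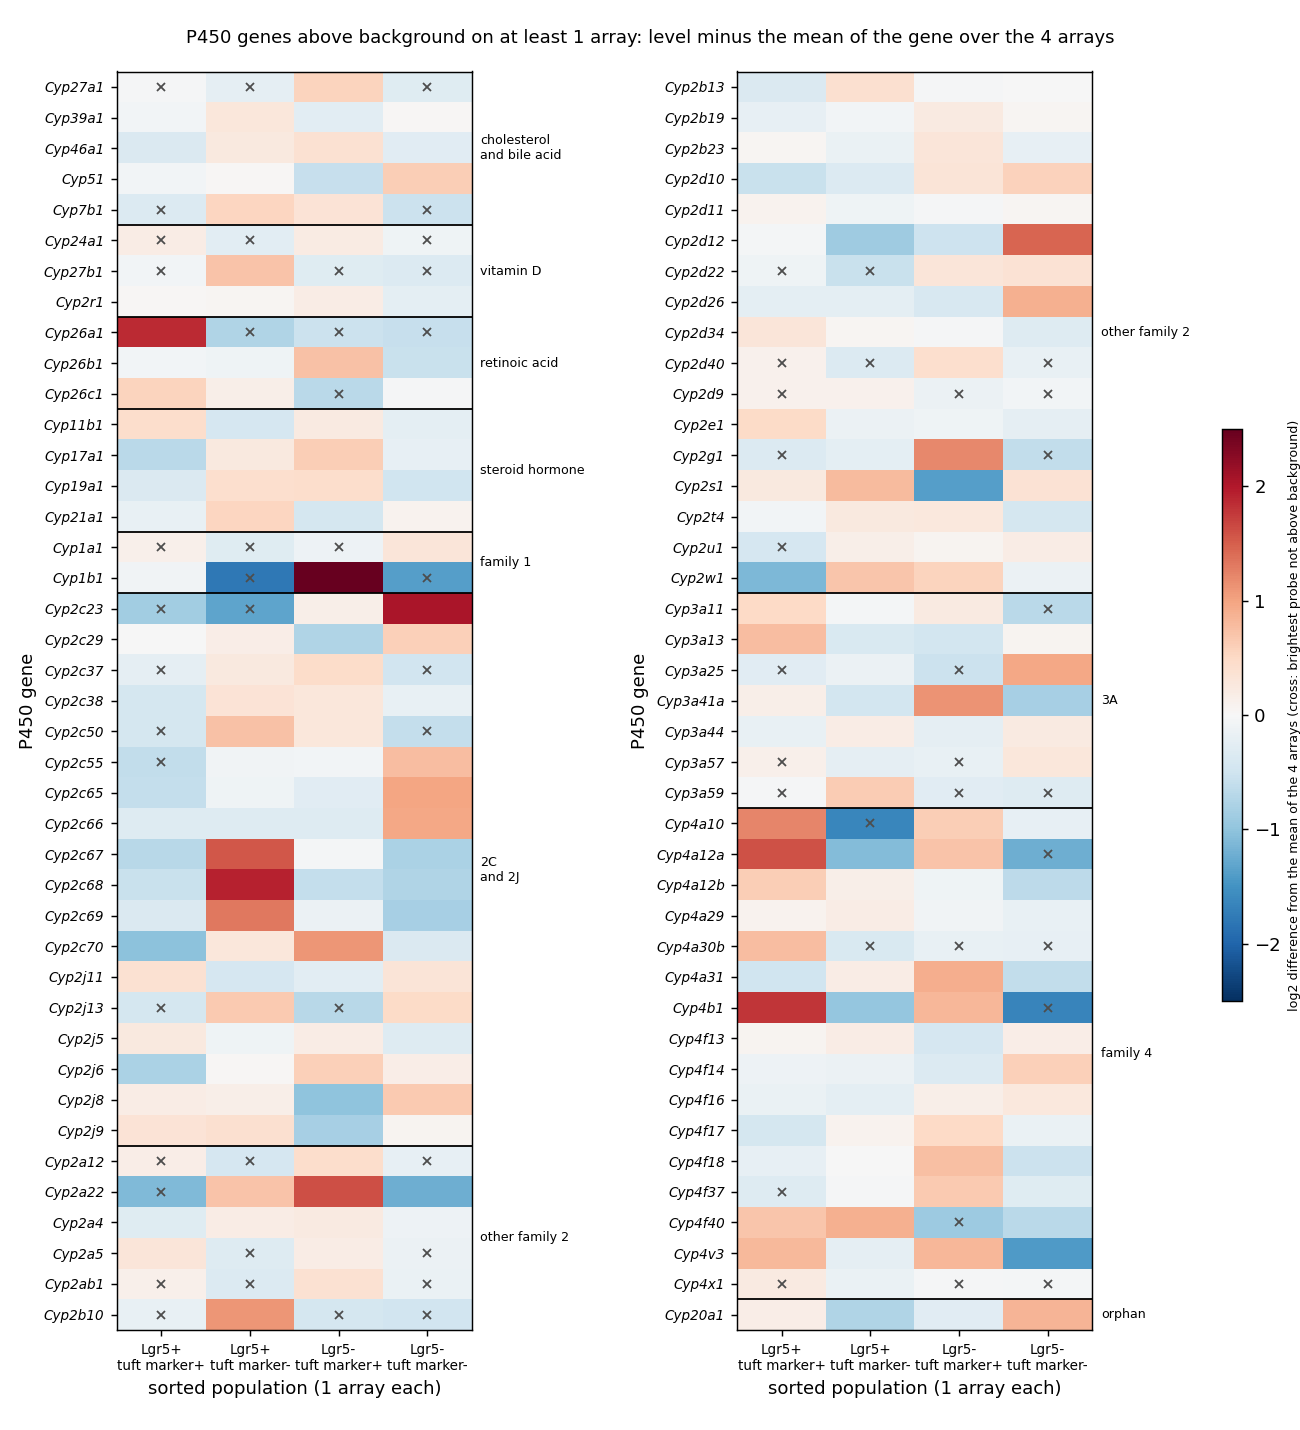
Level of the 82 P450 genes above background on at least 1 array (rows, grouped by role) in the 4 populations (columns, 1 array each), as the log2 difference from the gene's mean over the 4 arrays after low values were raised to the floor. Red is above and blue below that mean, crosses mark arrays where the gene's brightest probe was not above background, and the strongest red cells include Cyp1b1 in Lgr5- tuft marker+, Cyp26a1 in Lgr5+ tuft marker+ and Cyp2c68 in Lgr5+ tuft marker- cells.

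Membrane P450 enzymes draw electrons from the reductase Por and from cytochrome b5, and those of mitochondria from ferredoxin. All 9 such partner genes were above background on every array. Por stood at 1.44 in Lgr5+ tuft marker+ cells, 0.38 in Lgr5+ tuft marker- cells, 0.81 in Lgr5- tuft marker+ cells and 1.21 in Lgr5- tuft marker- cells, and tuft marker+ cells were higher than tuft marker- cells by 2.08-fold (log2 difference 1.06 ± 0.20) within Lgr5+. Within Lgr5-, tuft marker+ cells had 4 of the 9 partners at least 2-fold below tuft marker- cells and 0 above (all genes 12.4% and 16.5%), among them Cyb5b, lower by 2.45-fold (log2 difference -1.29 ± 0.20), and Pgrmc2, a haem-binding partner, lower by 4.78-fold (log2 difference -2.26 ± 0.35). The median log2 difference of the partners was -0.56 in that pair, beside the -0.77 of epithelial markers given above, and the part of the cell mixture was not tested. Hnf4a, which drives many intestinal and liver P450 genes, stood at 2.18 in Lgr5+ tuft marker+ cells, 1.76 in Lgr5+ tuft marker- cells, 1.24 in Lgr5- tuft marker+ cells and 2.55 in Lgr5- tuft marker- cells. Within Lgr5-, its tuft marker+ level was below the tuft marker- level by 2.47-fold (log2 difference -1.31 ± 0.20). Tbxas1 and Ptgis are P450 genes under other names, for thromboxane and prostacyclin synthesis. Tbxas1 stood at -1.44 in Lgr5+ tuft marker+ cells, -6.09 (not above background) in Lgr5+ tuft marker- cells, -0.06 in Lgr5- tuft marker+ cells and -4.16 (not above background) in Lgr5- tuft marker- cells. Ptgis stood at -2.78 in Lgr5+ tuft marker+ cells, -2.12 in Lgr5+ tuft marker- cells, -1.36 in Lgr5- tuft marker+ cells and -2.49 in Lgr5- tuft marker- cells, with tuft marker+ above tuft marker- cells by 2.2-fold (log2 difference 1.14 ± 0.25) within Lgr5-.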

How the data were processed

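Total RNA (13 ng per population) was labelled with Cy3 and hybridised to 4 one-colour Agilent arrays, 1 per sorted population. The deposited values are spot intensities, background-subtracted by Agilent Feature Extraction per the file headers, which name version 12.0.3.1, while the submitters' processing notes name 11.5.1.1, and the mm9 grid. The deposited flags for spots well above background, also per the file headers, decided detection. The authors' deposited table holds linear values scaled by 1 constant per array, inferred from the values, with medians of 279, 286, 365 and 253. Control spots and outlier spots were left out, and 32994 of 56605 probes were named, giving 22911 genes. A gene was read from its brightest probe, as log2 intensity minus the array's 75th percentile. Values below the lowest signal among detected probes were raised to that floor, and a gene was called at 2-fold or more, with 1 side above background. All 40 genes called in any pair are named with all 4 levels, the others by group. The members and lists were chosen with earlier results of these data known. With 1 array per population no test was possible, and errors are the scanner's. Alternatives, given in the closing section, were other scalings, background correction, detection, floor, probe choice and threshold. Normexp in limma 3.58.1 used the median signal in place of the mean planned, with an offset of 50. Python 3.11.15, numpy 2.4.6, pandas 2.3.3 and R 4.3.3 were used, and the code was tested on simulated data. Probe sequences were not used here, so cross-reading among close copies (2C, 2D, 3A, 4A and 4F genes) was not tested.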

Additional observations from a re-analysis of the deposited data

Results flagged for a closer look

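Cyp2a22 was apart in opposite directions in both pairs of each sort. The log2 difference of tuft marker+ minus tuft marker- cells was -1.82 within Lgr5+, a limit set by the floor, and 2.85 within Lgr5-. The log2 difference of Lgr5+ minus Lgr5- cells was -2.72 within tuft marker+, again a limit, and 1.94 within tuft marker-. Cyp2c70 had log2 differences of tuft marker+ minus tuft marker- cells of -1.31 within Lgr5+ and 1.45 within Lgr5-. With 1 array per population, the difference between the pairs was not tested for either gene.

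Probes named for P450 pseudogenes were outside the comparisons. That of Cyp2c53-ps was above background on 1 array, at a level of -2.60 in Lgr5+ tuft marker- cells. That of Cyp4b1-ps2 was above background on 2 arrays, at -2.71 in Lgr5- tuft marker+ cells and -3.86 in Lgr5+ tuft marker- cells.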

How the results depend on the processing

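No paired analysis was possible because each population has 1 array. Of the 74 gene-and-pair differences past 2-fold, 656 values could be given under 9 other settings, and 18 differences stayed past 2-fold under all 9. All 656 had the same direction, but 10 further values, 8 of them of opposite sign, were left out as described below. Without a detection filter or without a floor, the probe and scaling stayed the same. The direction could not turn there, so those values are no separate check of it. When the probes of a gene were averaged, 64 of the 74 could be given and 59 stayed past 2-fold. The other 10 were left out under a rule set after they were seen, since 4 had both arrays at the floor and 6 gave only a limit with no direction. Of these 10, 8 had carried the opposite sign: 0.44 for Cyp2b10, 0.44 for Cyp2c50 and 0.23 for Cyp2j13 (tuft marker within Lgr5+), 0.03 for Cyp2j13 (within Lgr5-), 0.25 for Cyp2c23 (Lgr5 within tuft marker+), and -0.17 for each of Cyp2b10, Cyp2c50 and Cyp7b1 (within tuft marker-), as log2 differences. The calls of these genes therefore rest on 1 probe. Past 2-fold stayed 70 of 74 with scaling to the median, 70 with quantile normalization, 69 with the authors' scaling and 22 with normexp, which was chosen after seeing the data in the form used. Of 80 recounted numbers of genes, 53 stayed within 1.5 times. Those without a detection filter repeat the main counts and are no separate check. Counts that moved further were as follows, each as genes higher or lower. Quantile normalization gave 11 higher for Lgr5+ against Lgr5- within tuft marker+. The authors' scaling gave 21 higher and 7 lower for tuft marker+ against tuft marker- within Lgr5-, and 14 lower for Lgr5 within tuft marker+. Normexp gave 4 higher and 3 lower for the tuft marker within Lgr5+, 4 and 2 within Lgr5-, 0 and 5 for Lgr5 within tuft marker+, and 3 and 2 within tuft marker-. The other detection flag gave 18 lower for the tuft marker within Lgr5+, 19 higher within Lgr5-, 11 higher and 22 lower for Lgr5 within tuft marker+, and 16 and 13 within tuft marker-. Without a floor there were 16 lower for the tuft marker within Lgr5+ and 17 lower for Lgr5 within tuft marker+. A threshold of 1.5-fold, which admits more genes, gave 15 higher and 20 lower for the tuft marker within Lgr5+, 28 higher within Lgr5-, 15 and 22 for Lgr5 within tuft marker+, and 20 and 15 within tuft marker-. Except for that threshold the cause was not tested. Scaling to the median moved the median log2 difference of all genes to 0.13, -0.24, 0.26 and -0.14 in the 4 pairs, and the authors' scaling to 0.09, 0.28, -0.13 and 0.04. The 97 P450 genes were above background in 58 to 70 cases per array, and dim genes have only limits.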
